A study of Homo sapiens with 14 samples.

Results

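Ribosome occupancy was compared with transcript abundance, gene by gene, in definitive endoderm (DE), the first stage of pancreatic differentiation of HUES8, an established human embryonic stem cell line. The genes were the protein-coding genes whose counts passed a low-count filter in both assays, at least 10 counts at the median library size in each of the 2 libraries of the assay. This left 10837 of 19174 protein-coding genes, out of 59050 gene symbols counted. The DE Ribo group held 2 libraries of ribosome-bound RNA from wild-type (WT) HUES8 cells at the DE stage. The DE RNA group held 2 libraries of ribosomal-RNA-depleted total RNA from the same line, genotype and stage. The series also held early (PP1, 2 Ribo and 2 RNA libraries) and late (PP2, 3 and 3) pancreatic progenitors of the same WT line, 14 libraries in all. All libraries came from 1 cell line. Whether the replicates were differentiated separately is not given in the sources used here, so p-values reflect only how far libraries of a group vary, and part of that may be technical.

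Ribosome profiling sequences the RNA fragments that translating ribosomes shield from nuclease digestion, while RNA sequencing measures the transcripts themselves. Their ratio, gene by gene, is used as a measure of how densely a transcript is occupied by ribosomes. mRNAs with a 5′ terminal oligopyrimidine tract (TOP), which include those of ribosomal proteins, are known to move between translated and silent pools with growth signals through mTOR and LARP1. Upstream open reading frames, iron-responsive elements and the separate ribosomes of mitochondria are other textbook settings in which occupancy and abundance part.

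A log2 ratio of Ribo to RNA is used below. Both assays were scaled over protein-coding genes, so 0 marks the trimmed average coding gene and not an absolute rate of translation. Levels are CPM, counts scaled to the library's coding reads. Only counts per gene were used, so reads within a coding sequence, in a UTR or from a small RNA lying inside the gene could not be told apart. Which regions of a gene the Ribo counts cover is not given in the sources used here.

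The Ribo libraries held 6108416 and 6090430 counts, of which 35.0% and 35.6% lay in coding genes, against 16942432 and 15107847 counts in RNA with 94.8% and 94.7% in coding genes. MT-RNR2, the large ribosomal RNA of mitochondria, made up 49.97% and 49.2% of the Ribo counts, against 0.00407% and 9.73e-04% of the RNA counts. Across the 10837 genes the Spearman correlation was 0.913 between the Ribo libraries, 0.994 between the RNA libraries and 0.724 between the mean Ribo and mean RNA levels. The ratio of replicate 1 and that of replicate 2 correlated at 0.846. These are correlations across genes, which are not independent replicates, and Ribo and RNA share gene length and annotation.

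The stage label was checked against marker genes. All 12 definitive endoderm markers, among them SOX17, FOXA2, CXCR4 and CER1, stood above 10 CPM in each of the 4 libraries, with a summed level of 7434 and 9962 CPM in Ribo and 8212 and 8713 CPM in RNA. Undifferentiated stem cell markers summed to 292 and 233 CPM in Ribo and 214 and 236 CPM in RNA. In RNA 4 of the 7, POU5F1, NANOG, DPPA4 and PRDM14, exceeded 10 CPM. DPPA4 made up most of the sums, at 150 and 162 CPM in RNA. SOX2, a defining marker of that state, had 8 and 0 Ribo counts and 5 and 14 RNA counts. Of 8 liver and pancreas markers 1, ONECUT1, exceeded 10 CPM in RNA, at 13.2 and 12.9 CPM. The 8 summed to 19.2 and 25.4 CPM in Ribo and 13.3 and 12.9 CPM in RNA. PDX1, NKX6-1, NEUROG3, AFP and TTR had no RNA count, though NKX6-1 had 19 and 15 Ribo counts. Of the mesoderm markers 2 of 11 exceeded 10 CPM in RNA, with sums of 81.6 and 115 CPM in Ribo and 139 and 154 CPM in RNA. Extraembryonic markers had 1 of 8, with 99.1 and 74.3 CPM in Ribo and 102 and 107 CPM in RNA. Neural ectoderm markers had 3 of 8, with 577 and 524 CPM in Ribo and 398 and 423 CPM in RNA. MEOX1, KRT7, CGA and NEUROD1 had no RNA count. PAX6 and NES made up most of the neural sum, at 110 and 116 CPM and at 251 and 265 CPM in RNA. Their part in the ratios was not tested.

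Occupancy spread widely around abundance. By edgeR's quasi-likelihood test with Benjamini-Hochberg adjustment, 3021 genes were higher in Ribo than in RNA, 27.9% of those tested, and 2985 were lower, 27.5%. Together 6006 genes passed at an adjusted p under 0.05, 55.4%. The 25th and 75th percentiles of the log2 ratio were -0.77 and 0.85, the 5th and 95th were -1.78 and 2.22, and the range was -5.40 to 7.75. At 8-fold or more, 175 genes were higher and 60 lower among those that passed. Of the 6006 genes, 6005 had no overlap between the Ribo and the RNA libraries, as did 8626 of all 10837 tested genes. With 2 libraries per assay a lack of overlap is common, so it adds little to a call. Leaving out 1 RNA library left 3363 or 3647 genes, and leaving out 1 Ribo library gave 7567 or 7382. Such fits assume that the lone library of an assay varies like the pair of the other assay, so a call gained without a Ribo library rests on 1 Ribo library and on the spread of RNA.

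**Figure D1:**
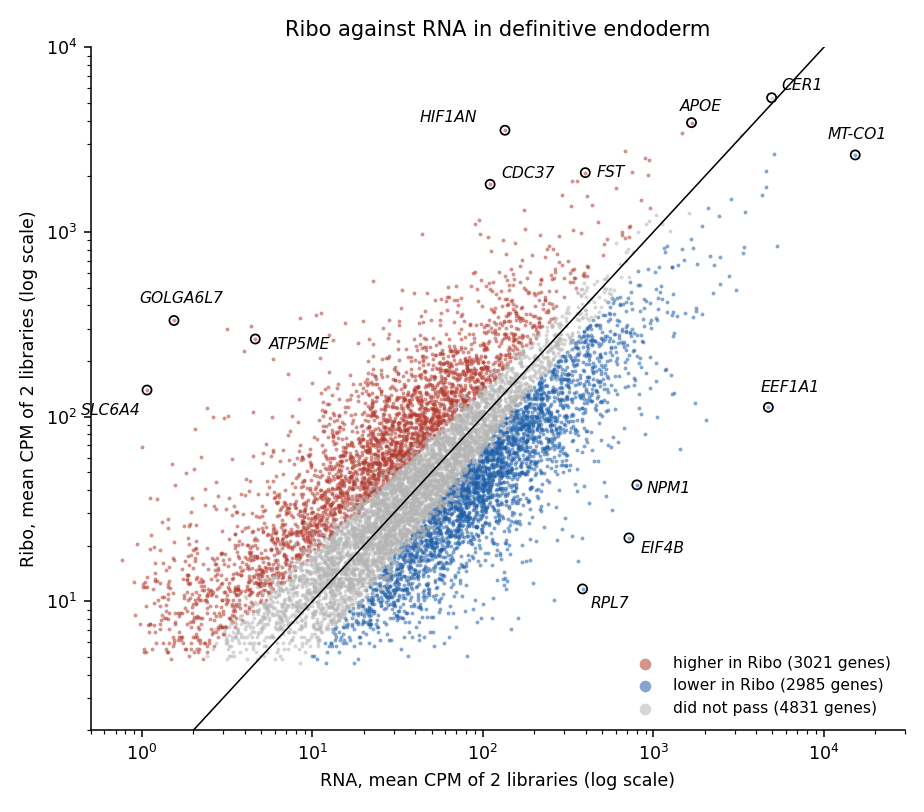
Mean Ribo level against mean RNA level of the 10837 coding genes, both in CPM on log axes, each point 1 gene and the line equal levels. The 3021 genes higher in Ribo lie above the band of genes that did not pass and the 2985 lower ones below it, with GOLGA6L7 and EEF1A1 at the ends of the ratio range.

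Among genes tested in both assays, those with the highest Ribo levels were CER1, APOE, HIF1AN, CALR, APLP2 and TMSB10. CCDC105 and RP1, which passed the filter in Ribo alone, are left out of this ranking. They had 21123 and 34915 CPM and 3142 and 6515 CPM in Ribo. CER1, a secreted antagonist of Nodal and BMP signals made by endoderm, led the tested genes in Ribo with 4052 and 6619 CPM, against 4839 and 5048 CPM in RNA. Its groups overlapped, and its ratio lay near the middle of all genes (log2 0.11 ± 0.22 (SE), adjusted p = 0.686 by edgeR). Its value turned on the library, at 0.42 without Ribo replicate 1 and -0.30 without Ribo replicate 2. Next came APOE, an apolipoprotein, with 3785 and 4036 CPM in Ribo against 1581 and 1769 CPM in RNA, and CALR, an endoplasmic reticulum (ER) chaperone, with 3142 and 3749 CPM against 1414 and 1515 CPM. Both were higher in Ribo, at log2 1.22 ± 0.13 and 1.23 ± 0.14, though APOE did not pass in a fit of all 14 libraries (adjusted p = 0.110). APLP2, a membrane protein related to the amyloid precursor protein, had 3004 and 3670 CPM in Ribo against 3217 and 3359 CPM in RNA. Per kilobase of gene length, TMSB10, an actin-binding peptide, stood first of the tested genes with 5984 Ribo CPM per kilobase, against 1482 in RNA. CER1 followed with 4392 against 4069 CPM per kilobase, and the mitochondrial MT-CO1 was the fourth with 1695 against 9917.

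HIF1AN, the asparagine hydroxylase that acts on HIF1A, was the third of the tested genes by Ribo level. It had 3265 and 3850 CPM in Ribo, against 128 and 141 CPM in RNA (log2 4.72 ± 0.16, adjusted p = 1.07e-05). It was the highest ratio among genes with at least 20 CPM in RNA. The next were UBL5, a ubiquitin-like protein, with 373 and 709 CPM against 22.3 and 22.9 CPM, and SLC29A4, a monoamine transporter, with 470 and 1471 CPM against 39.8 and 47.8 CPM. CDC37, a kinase co-chaperone of HSP90, had 2068 and 1556 CPM in Ribo against 103 and 118 CPM in RNA. In each of these genes every Ribo library lay above both RNA libraries, though the Ribo libraries of SLC29A4 differed widely from each other.

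The highest ratios of all belonged to genes with very little RNA. GOLGA6L7, of a golgin-like gene family, had 315 and 349 CPM in Ribo against 1.31 and 1.76 CPM in RNA (log2 7.75 ± 0.23, adjusted p = 7.58e-06). SLC6A4, the serotonin transporter, had 140 and 138 CPM against 1.183 and 0.956 CPM, and KDM4D, a histone demethylase, had 303 and 293 CPM against 3.75 and 2.57 CPM. AHRR, the repressor of the aryl hydrocarbon receptor, followed with 313 and 305 CPM against 4.34 and 4.41 CPM. LMLN2, GLIS1, ATP5ME, RASD1, MICAL2 and NFATC2 completed the 10 highest, with log2 ratios of 5.35 to 6.07. GOLGA6L7 belongs to a family of similar copies, and its counts are uncertain for that reason.

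The lowest ratios belonged to abundant transcripts. A gene needed about 4.45 CPM in Ribo to be tested, so ratios this low could be seen only where RNA was high. EEF1A1, the elongation factor that brings aminoacyl-tRNA to the ribosome, had 117 and 108 CPM in Ribo against 4831 and 4626 CPM in RNA (log2 -5.40 ± 0.15, adjusted p = 7.58e-06). RPL7, a protein of the large ribosomal subunit, had 13.97 and 9.35 CPM in Ribo against 396 and 373 CPM in RNA, and EIF4B, a cofactor of the EIF4A helicase, had 22.7 and 21.4 CPM against 750 and 688 CPM. SUMO2, H3F3A, RPS2, MT-ATP6, AIDA, SMS and NPM1 followed, with log2 ratios between -4.69 and -4.23. RPS2, RPL7, EEF1A1, EIF4B and NPM1 are TOP mRNAs by common lists.

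Some genes passed the filter in 1 assay only. There were 258 coding genes with enough Ribo counts and too few RNA counts. CCDC105, a tektin-like gene, led them with 48391 and 78432 Ribo counts and no RNA count, and RP1, a photoreceptor microtubule protein, had 7197 and 14635 Ribo counts against 0 and 1 RNA counts. ABCA13, IL16 and ST8SIA5 followed, with 1264 to 1871 Ribo counts and at most 7 RNA counts per library. In the other direction 2842 coding genes had enough RNA counts and too few Ribo counts, where the coding counts of RNA were several times those of Ribo. Among the highest of them were RPS28 with 12.7 and 3.12 CPM in Ribo against 199 and 222 CPM in RNA, NUS1, SRSF1 and TCAF1. NUS1, a subunit of the enzyme that makes dolichol, had 0 and 1 Ribo counts against 2022 and 1625 RNA counts.

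Gene length, RNA level and the number of pseudogenes moved with the ratio, and none of them chose the genes except through the filter. In 5 equal bins from the shortest to the longest genes, by the length given in the count table, the median log2 ratio was 0.74, 0.24, -0.04, -0.30 and -0.58 (Spearman -0.37 across 10837 genes). In 5 equal bins from the lowest to the highest RNA level it was 1.09, 0.22, -0.03, -0.37 and -0.83 (Spearman -0.54). RNA level is the denominator of the ratio, and 10 counts in the shallower Ribo library were worth 4.45 CPM, so a gene of low RNA could pass only with a high ratio. The parts these play in the relation were not tested. Among the 8022 of these genes with a mean of at least 20 CPM in RNA, the Spearman correlation was -0.37 with RNA level and -0.34 with length.

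Processed pseudogenes are intron-less copies left in the genome by retrotransposition, counted here as RefSeq pseudogenes named after the gene. Genes with none had a median log2 ratio of 0.06 (9015 genes). The median was -0.14 with 1 pseudogene, -0.34 with 2 to 4, -0.57 with 5 to 10, and -1.43 with 11 to 137 (111 genes). Short reads from genes with near-identical copies can be lost or assigned to a copy, which makes these genes' counts uncertain.

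**Figure D2:**
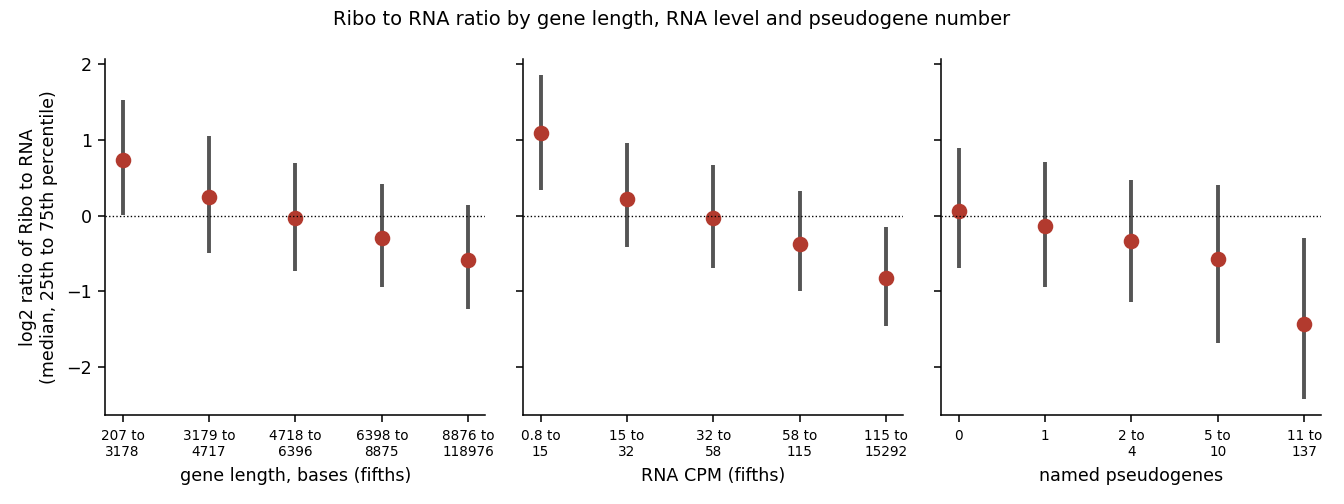
Median log2 ratio of Ribo to RNA (points) with the 25th to 75th percentile (bars) of coding genes in 5 equal bins of gene length, 5 of mean RNA CPM and classes of named pseudogene number. The medians run from 0.74 to -0.58 over length, from 1.09 to -0.83 over RNA level and from 0.06 to -1.43 over pseudogene number.

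Gene classes were then set side by side, with 34 lists of coding genes. Of their medians 20 lay below 0 and 14 above it. Nuclear-encoded complex I subunits had the highest median, 1.48, and mitochondrially encoded proteins the lowest, -2.26. The counts of members higher or lower in each class stand against 27.9% and 27.5% of all genes, and against a median of 0.00. They cover tested members only. Members that passed the filter in RNA alone, where a low ratio is hidden, numbered 0 to 5 per class outside the zinc finger genes, of which there were 102. The lists were chosen with earlier results of these data known.

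**Figure D3:**
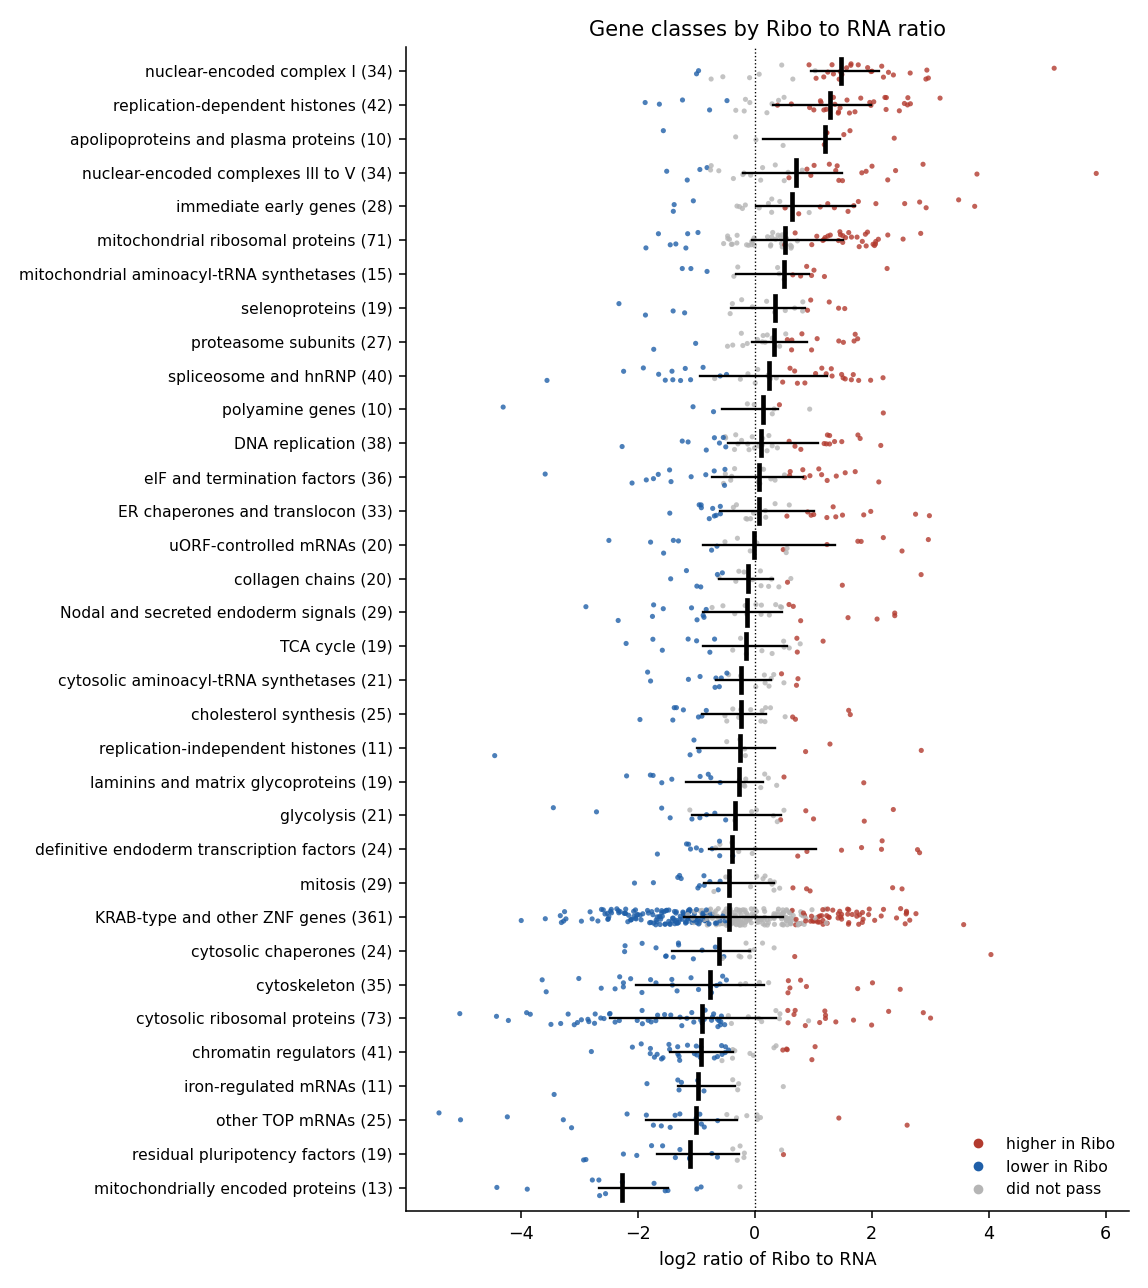
Log2 ratio of Ribo to RNA of every tested member (points) of the 34 coding gene lists, with the median (vertical tick) and the 25th to 75th percentile (bar), ordered by median. The number tested is in parentheses, and the vertical spread of points has no meaning. Medians run from 1.48 for complex I subunits down to -2.26 for mitochondrially encoded proteins.

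Cytosolic ribosomal proteins were more often lower than higher. Of the 78 counted, 73 were tested, 15 were higher in Ribo, 49 were lower and 9 did not pass, with a median of -0.90. The median was -0.20 against genes in the same of 10 bins of RNA level, and -1.45 against genes in the same of 10 length bins. The tested members leave out 5 with little Ribo signal that passed the filter in RNA alone, among them RPS10, RPS28, RPL36A and RPL39. The spread within the class was large. Of the small subunit, RPS21 had 318 and 380 CPM in Ribo against 42.5 and 44.3 CPM in RNA (log2 3.01 ± 0.16, adjusted p = 2.64e-05), while RPS2 had 74.2 and 60.1 CPM against 1422 and 1440 CPM (log2 -4.41 ± 0.16) and RPS3A had 35.4 and 26.7 CPM against 602 and 548 CPM. Of the large subunit, RPL35A had 485 and 724 CPM in Ribo against 121 and 126 CPM in RNA, and the stalk protein RPLP2 had 577 and 638 CPM against 189 and 188 CPM. The subunits of a particle assembled at fixed proportions thus covered log2 ratios from -5.04 to 3.01.

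Within the ribosomal proteins the ratio moved with pseudogene number (Spearman -0.42 across 73 genes) and with RNA level (-0.57), and little with gene length (-0.06). The 28 genes with 4 to 10 named pseudogenes had a median of -0.54, the 20 with 12 to 25 had -1.26 and the 25 with 26 to 137 had -2.47. RPL35A and RPL26, at log2 2.29 and 1.999 with 37 and 36 pseudogenes, lay far above others of that number. Summed over the class, reads counted at the pseudogenes themselves were few. The named pseudogenes of 72 ribosomal protein genes summed to 377 and 321 CPM in Ribo and to 615 and 631 CPM in RNA. Adding them to their parents left the median at -0.92, against -0.91 for the same 72 genes alone. RPL7 with its pseudogenes had 36.8 CPM in Ribo against 402 CPM in RNA, a log2 ratio of -3.45 in place of -5.04. Reads that the authors' counting dropped because they matched several places are not in these values, and their part in the result was not tested.

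**Figure D4:**
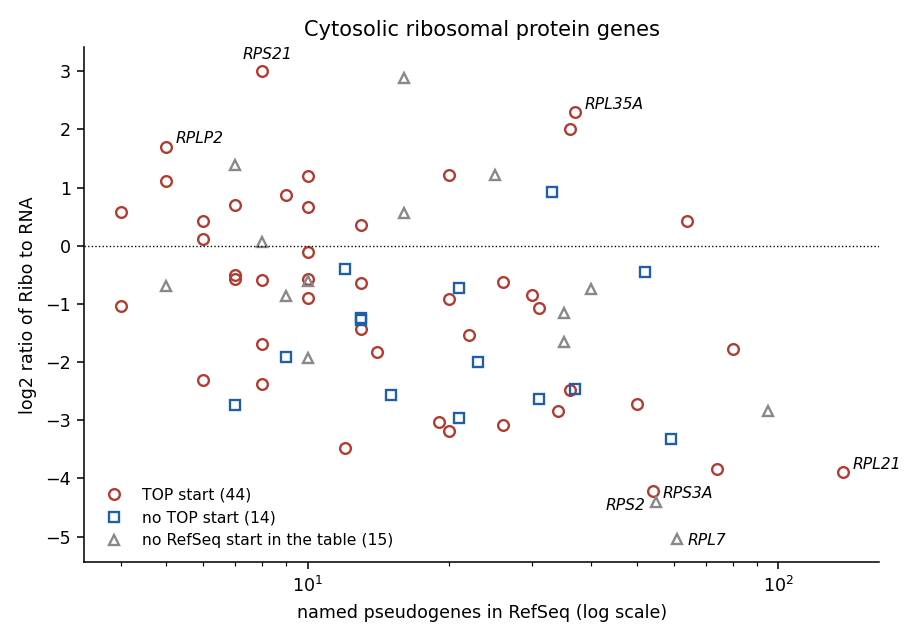
Log2 ratio of Ribo to RNA of the 73 tested cytosolic ribosomal protein genes against the number of RefSeq pseudogenes named after each (log axis). Marks show whether the RefSeq start is a TOP start (44 genes), is not (14) or is not in the start table (15). RPS21 stands highest at 3.01 and RPL7 lowest at -5.04.

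The TOP tract lies at the first transcribed base. It was searched for at RefSeq starts (GRCh38.p14) as a C followed by at least 4 C or T, on the gene's strand. Starts were found for 8966 of the tested genes, and 7.81% of these genes had a TOP start at any of their listed starts. Counted singly, 4.07% of all 35116 starts in the table were TOP starts. A gene can have several starts, so these shares cannot be set against each other. Among the ribosomal proteins 44 of 58 with a start had a TOP start. The starts below are the 3 lowest and the 3 highest ratios among ribosomal protein and other TOP mRNAs with such a start. Each runs from 5 bases before the annotated start to 25 bases from it, with the tract in capitals.
EEF1A1: acgttCTTTTTCgcaacgggtttgccgcca
EIF4B: cgggtCTTTTgcgttctctttccctctccc
NPM1: gcgtcCTTTCCCTggtgtgattccgtcctg
RPS21: tgcttCCTTTCTCTCTCgcgcgcggtgtgg
PFDN5: acttcCTCTTCgttaagtcggccttcccaa
RPL35A: tcgtcCTTCTCTTaccgccatcttggctcc
They lie at chr6:73521008-73521037 on the minus strand for EEF1A1, and on the plus strand at chr12:53006451-53006480 for EIF4B, chr5:171387844-171387873 for NPM1, chr20:62387098-62387127 for RPS21, chr12:53295537-53295566 for PFDN5 and chr3:197950185-197950214 for RPL35A. Tracts of 5 to 8 bases stood at the 3 lowest ratios and of 6 to 12 bases at the 3 highest. Over all coding genes, the 700 with a TOP start had a median of -0.07 and the 8266 without one 0.00. Outside the ribosomal protein and other TOP lists these were -0.03 (640 genes) and 0.01 (8251 genes), and among genes with no named pseudogene 0.07 (516 genes) and 0.06 (6889 genes).

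Other TOP mRNAs, mostly elongation and initiation factors, had a median of -1.0003, with 2 of 25 higher and 17 lower, and -0.29 against genes in the same RNA level bin. Besides EEF1A1 and EIF4B, NPM1, a nucleolar chaperone, had 50.2 and 35.2 CPM in Ribo against 817 and 783 CPM in RNA. Its named pseudogenes held a mean of 51.2 CPM in Ribo and 23.3 CPM in RNA. Adding them gave NPM1 a log2 ratio of -3.13 in place of -4.23. RACK1, a scaffold on the small subunit, had 769 and 783 CPM against 744 and 765 CPM and did not pass. PFDN5, a subunit of the prefoldin chaperone, was the highest with 372 and 481 CPM in Ribo against 70.0 and 70.1 CPM in RNA (log2 2.61 ± 0.17). EEF2, which moves the ribosome along the mRNA, had 1351 CPM in each Ribo library against 2087 and 2101 CPM in RNA (log2 -0.63 ± 0.12), and did not pass when either RNA library was left out (adjusted p = 0.112 and 0.114).

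The remaining translation machinery was split. Of 36 initiation and termination factors outside the TOP list 12 were higher and 12 lower, median 0.07. EIF4E, the cap-binding protein, had 7.86 and 8.46 CPM in Ribo against 105 and 90.2 CPM in RNA, and EIF4G1, its scaffold, had 192 and 196 CPM against 801 and 857 CPM. EIF2B4, a subunit of the exchange factor for eIF2, had 220 and 216 CPM in Ribo against 49.2 and 50.9 CPM in RNA. Cytosolic aminoacyl-tRNA synthetases had 3 of 21 higher and 9 lower, median -0.24, from VARS at -1.83 to HARS at 0.74, which did not pass when either RNA library was left out (adjusted p = 0.210 and 0.222). Their mitochondrial counterparts had 7 of 15 higher and 3 lower, median 0.50, from LARS2 at -1.24 to SARS2 at 2.26.

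Of the 13 proteins encoded by mitochondrial DNA, translated on mitochondrial ribosomes, 12 were lower in Ribo and none was higher, median -2.26. They took 0.967% of Ribo and 3.76% of RNA CPM over the tested genes. Their median was -1.28 against genes in the same RNA level bin and -3.17 against genes in the same length bin. MT-CO1, the catalytic subunit of cytochrome oxidase, had 2306 and 2922 CPM in Ribo against 13834 and 16750 CPM in RNA (log2 -2.55 ± 0.17, adjusted p = 4.91e-05). MT-ATP6, a subunit of ATP synthase, had 76.8 and 116 CPM against 1836 and 2245 CPM and was the lowest. MT-ND3, of complex I, had 76.4 and 122 CPM against 110 and 126 CPM and did not pass. Its log2 ratio was 0.05 without Ribo replicate 1 and -0.64 without Ribo replicate 2, where it passed. The nuclear-encoded partners stood on the other side. Of 34 complex I subunits 25 were higher and 2 lower, median 1.48, and of 34 subunits of complexes III to V 17 were higher and 4 lower, median 0.70, which was 0.36 without Ribo replicate 2.

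NDUFA1, an accessory subunit of complex I, had 165 and 244 CPM in Ribo against 5.85 and 5.88 CPM in RNA (log2 5.12 ± 0.26). ATP5ME, of ATP synthase, had 274.6 and 252 CPM against 3.35 and 5.88 CPM (log2 5.84 ± 0.28), and UQCRQ, of complex III, had 189 and 160 CPM against 10.7 and 14.4 CPM. NDUFV2 was the lowest of complex I with 6.98 and 8.90 CPM in Ribo against 14.7 and 16.99 CPM in RNA, and did not pass when either RNA library was left out (adjusted p = 0.214 and 0.315). UQCRFS1, the Rieske protein, was the lowest of the others at log2 -1.50 ± 0.35. Mitochondrial ribosomal proteins had 31 of 71 higher and 7 lower, median 0.53, from MRPL19 at -1.86 to MRPS26 at 2.84. These are short genes. Against the median of genes in the same of 10 length bins, the complex I median was 1.03, that of complexes III to V 0.39 and that of mitochondrial ribosomal proteins -0.02.

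Replication-dependent histones, whose short mRNAs end in a stem-loop in place of a poly(A) tail, had 29 of 42 higher and 5 lower, median 1.28. HIST1H4A had 110 and 102 CPM in Ribo against 13.7 and 9.93 CPM in RNA, and HIST2H2BF, at the low end, had 60.2 and 75.2 CPM against 259 and 237 CPM. The median was 0.45 against genes in the same of 10 length bins. Histone genes of one type are near-identical in sequence, and 18 of 60 were not tested, so these values are uncertain. Replacement histones, made outside S phase, had 3 of 11 higher and 4 lower, median -0.25. The H3.3 genes differed, with H3F3A at 11.8 and 21.4 CPM in Ribo against 359 and 362 CPM in RNA, and H3F3B at 265 and 295 CPM against 317 and 307 CPM.

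Endoderm transcription factors fell on both sides. Of 24 tested, 8 were higher in Ribo and 10 lower, median -0.38. FOXA2, the pioneer factor of gut endoderm, had 872 and 652 CPM in Ribo against 263 and 281 CPM in RNA (log2 1.48 ± 0.17, adjusted p = 3.25e-04). GSC, the organiser homeobox gene, had 450 and 535 CPM against 102 and 117 CPM. The ID proteins, inhibitors of helix-loop-helix factors and targets of BMP signals, were all higher, ID3 with 445 and 447 CPM in Ribo against 59.2 and 67.2 CPM in RNA, and ID2 and ID1 at log2 2.78 ± 0.22 and 2.18 ± 0.23. Each of these genes had both Ribo libraries above both RNA libraries.

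The GATA factors were lower. GATA6 had 204 and 182 CPM in Ribo against 590 and 631 CPM in RNA (log2 -1.66 ± 0.14, adjusted p = 9.50e-05), and GATA4 had 203 and 212 CPM against 451 and 480 CPM, but did not pass in the fit of 14 libraries (adjusted p = 0.0521). EOMES, the T-box factor that opens the endoderm programme, had 340 and 335 CPM against 531 and 586 CPM, and MIXL1 had 145 and 144 CPM against 208 and 229 CPM. EOMES did not pass without RNA replicate 2 (adjusted p = 0.0624), nor MIXL1 when either RNA library was left out (0.0825 and 0.181). SOX17, the defining factor of the stage, had 449 and 412 CPM in Ribo against 503 and 537 CPM in RNA and did not pass (log2 -0.27 ± 0.13, adjusted p = 0.110), though it passed without Ribo replicate 1, at -0.34. OTX2, at 378 and 460 CPM against 407 and 425 CPM, overlapped between assays. By RNA level GATA6 stood above FOXA2, and by Ribo level FOXA2 stood above GATA6.

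**Figure D5:**
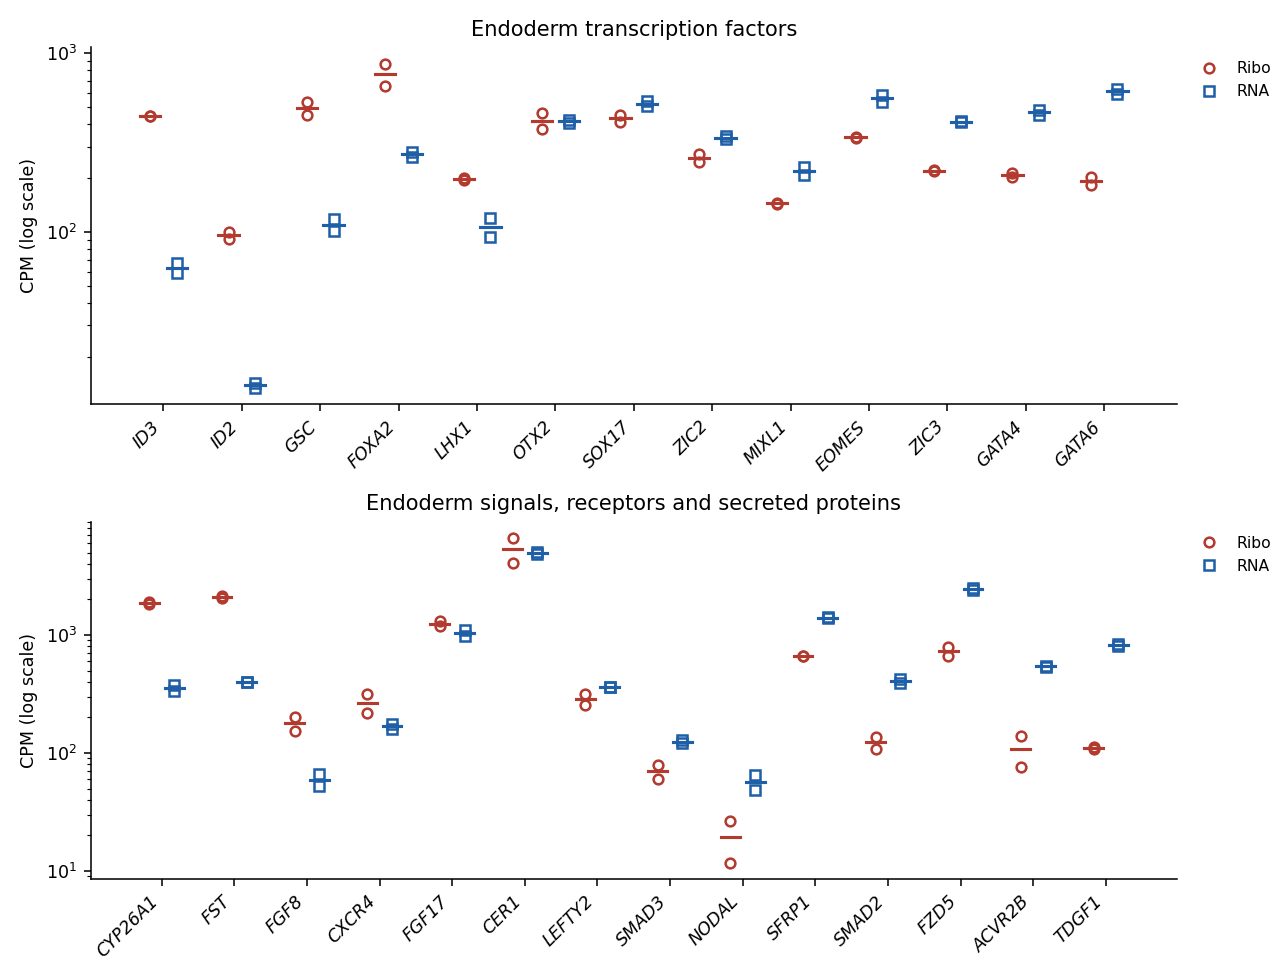
Level in CPM (log axis) of 13 endoderm transcription factors and 14 signals, receptors and secreted proteins in the 2 Ribo (circles) and 2 RNA (squares) libraries, with bars at the means. ID3, GSC and FOXA2 had both Ribo libraries above RNA and GATA4 and GATA6 both below, and FST and CYP26A1 stand opposite FZD5, ACVR2B and TDGF1.

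Ligands, antagonists and receptors of the Nodal, BMP, WNT and FGF pathways had 7 of 29 higher and 10 lower, median -0.13. Among secreted antagonists, FST, which binds activin, had 2143 and 2050 CPM in Ribo against 398 and 399 CPM in RNA (log2 2.39 ± 0.13, adjusted p = 2.44e-05), while the WNT antagonist SFRP1 had 658 and 664 CPM against 1382 and 1411 CPM. CYP26A1, which degrades retinoic acid, had 1842 and 1918 CPM in Ribo against 336 and 379 CPM in RNA. Of the ligands, FGF8 had 203 and 155 CPM against 52.4 and 66.0 CPM, FGF17 did not pass, and NODAL had 11.8 and 26.7 CPM in Ribo against 48.8 and 64.7 CPM in RNA. FGF17, at log2 0.25 ± 0.13, passed without Ribo replicate 1, at 0.32, and NODAL did not pass without RNA replicate 2 (adjusted p = 0.0663).

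Of the Nodal receptors and effectors named here, TDGF1, ACVR2B, SMAD2, SMAD3 and SMAD4 were lower in Ribo, and ACVR1B and ACVR2A did not pass. TDGF1 (Cripto), the Nodal co-receptor, had 113 and 109 CPM in Ribo against 833 and 807 CPM in RNA (log2 -2.88 ± 0.14, adjusted p = 2.02e-05), and has 6 named pseudogenes. ACVR2B, an activin receptor, had 76.8 and 139 CPM against 538 and 551 CPM. SMAD2, the signal transducer, had 109 and 137 CPM against 422 and 391 CPM, and SMAD3 and SMAD4 were lower at log2 -0.83 and -0.98. FZD5, a WNT receptor, had 661 and 797 CPM in Ribo against 2413 and 2480 CPM in RNA. CXCR4, the chemokine receptor used to sort this stage, was higher, with 217 and 315 CPM against 160 and 177 CPM (log2 0.66 ± 0.19). ACVR1B and ACVR2A stood at log2 -0.54 and -0.16, and ACVR1B passed without Ribo replicate 2, at -0.81. With a filter on RNA alone ACVR2A was 0.14, and SMAD3 did not pass (adjusted p = 0.0566). Without RNA replicate 1, CXCR4, SMAD3 and SMAD4 did not pass (adjusted p = 0.125, 0.0647 and 0.104), nor did SMAD3 without RNA replicate 2 (0.0972).

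Apolipoproteins and other plasma proteins had 6 of 10 higher and 1 lower, median 1.21. APOA2 had 118 and 116 CPM in Ribo against 21.2 and 23.6 CPM in RNA, and IGFBP5, a binding protein of insulin-like growth factors, was the only lower member, at log2 -1.56 ± 0.13. ER chaperones and the translocon had 12 of 33 higher and 10 lower, median 0.07. HSP90B1 had 2374 and 2532 CPM in Ribo against 928 and 948 CPM in RNA, while HSPA5 (BiP) had 509 and 522 CPM against 829 and 833 CPM and did not pass when either RNA library was left out (adjusted p = 0.0544 and 0.0536). Collagen chains had 3 of 20 higher and 6 lower, median -0.11, from COL4A1 at -1.44 to COL9A1 at 2.85. Laminins and matrix glycoproteins had 2 of 19 higher and 9 lower, median -0.26. FN1, fibronectin, had 715 and 609 CPM in Ribo against 2307 and 2250 CPM in RNA, and did not pass in the fit of 14 libraries (adjusted p = 0.0582). FRAS1 was the lowest at -2.19 and LAMA4 the highest at 1.87, which did not pass without RNA replicate 1 (adjusted p = 0.0826).

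Genes of the stem cell state that were still transcribed were mostly lower. Of 19 tested pluripotency and early embryonic genes 12 were lower in Ribo and 1 was higher, median -1.11, and -0.29 against genes in the same RNA level bin. HMGA1, an architectural chromatin protein, had 169 and 165 CPM in Ribo against 1238 and 1297 CPM in RNA (log2 -2.92 ± 0.13), and LIN28A, the inhibitor of let-7 maturation, had 298 and 452 CPM against 1846 and 1704 CPM. DPPA4 was the only higher member, with 244 and 194 CPM against 150 and 162 CPM, and did not pass when either RNA library was left out (adjusted p = 0.290 and 0.163). POU5F1 passed in RNA alone, with 11 and 0 Ribo counts against 468 and 447 RNA counts. NANOG had 11.3 and 12.9 CPM in Ribo against 12.9 and 15.96 CPM in RNA and did not pass. In bulk samples, fewer cells of a type and less RNA per cell cannot be told apart.

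mRNAs known for regulated translation were tested as small lists. Of 20 with regulatory upstream open reading frames 7 were higher and 7 lower, median -0.02. ATF5, a stress-induced factor, had 48.5 and 46.7 CPM in Ribo against 5.46 and 6.69 CPM in RNA (log2 2.97 ± 0.28), and its pathway partners DDIT3 and PPP1R15A were higher at log2 2.52 ± 0.34 and 1.76 ± 0.15. ATF4, the central factor of this stress response, had 413 and 339 CPM against 401 and 392 CPM and did not pass.

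Iron-regulated mRNAs had none of 11 higher and 7 lower, median -0.97, and -0.31 against genes in the same RNA level bin. FTH1, the ferritin heavy chain, whose 5′ iron-responsive element is known to block its translation when iron is scarce, had 33.2 and 23.1 CPM in Ribo against 314 and 292 CPM in RNA (log2 -3.43 ± 0.21). FTL, the light chain, had 112 and 132 CPM against 434 and 438 CPM. FTH1 has 27 named pseudogenes and FTL 20, and adding the reads at its pseudogenes gave FTH1 a log2 ratio of -2.89. TFRC, the transferrin receptor, did not pass, with a log2 ratio of 0.05 without Ribo replicate 1 and -0.70 without Ribo replicate 2, where it passed. Of 10 polyamine genes 2 were higher and 3 lower, median 0.15, and -0.41 against genes in the same length bin. SAT1, which acetylates polyamines, had 55.4 and 35.2 CPM in Ribo against 9.86 and 9.85 CPM in RNA, and spermine synthase SMS had 11.3 and 4.90 CPM against 175 and 146 CPM. Selenoproteins had 5 of 19 higher and 4 lower, median 0.34, from SELENOT at -2.32 to SELENOW at 1.54. The median was -0.18 without Ribo replicate 2 and -0.49 against genes in the same length bin.

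Immediate early genes, which respond to stimuli within minutes and have short-lived mRNAs, had 14 of 28 higher and 3 lower, median 0.64. FOS had 68.1 and 64.5 CPM in Ribo against 5.85 and 5.96 CPM in RNA (log2 3.49 ± 0.25, adjusted p = 6.04e-05), and JUN had 519 and 347 CPM against 56.6 and 56.9 CPM. KLF4 was the highest of the list at log2 3.76 ± 0.37, and IER2 stood at 2.82 ± 0.23. DUSP5, a phosphatase of ERK, was the lowest with 48.9 and 50.3 CPM against 124 and 136 CPM.

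Housekeeping classes differed from each other. Chromatin regulators, mostly long genes, had 5 of 41 higher and 28 lower, median -0.92. It was -0.52 against genes in the same length bin and -0.01 against genes in the same RNA level bin. TET1, a methylcytosine dioxygenase, had 58.9 and 44.5 CPM in Ribo against 370 and 347 CPM in RNA, and EZH2, the Polycomb methyltransferase, had 200 and 124 CPM against 84.4 and 74.0 CPM. Cytoskeletal genes had 8 of 35 higher and 23 lower, median -0.76, from the tubulin TUBA1A at -3.63 to the myosin light chain MYL6 at 2.49. Cytosolic chaperones had 2 of 24 higher and 13 lower, median -0.61, from HSPA8 at -2.22 to CDC37 at 4.04. The chaperone median was -0.16 against genes in the same RNA level bin, and -1.30 over the 7 members with no named pseudogene. Zinc finger genes named ZNF had 59 of 361 higher and 135 lower, median -0.44, from ZNF626 at -3.99 to ZNF300 at 3.57.

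Proteasome subunits had 11 of 27 higher and 2 lower, median 0.32, from PSMD12 at -1.73 to PSMC4 at 1.76. Spliceosome and hnRNP genes had 18 of 40 higher and 13 lower, median 0.25, and HNRNPA2B1 had 2698 and 2325 CPM in Ribo against 891 and 901 CPM in RNA. DNA replication genes had 13 of 38 higher and 8 lower, median 0.10, from PRIM2 at -2.27 to MCM7 at 2.16. Mitosis genes had 5 of 29 higher and 12 lower, median -0.43, from CKS1B at -2.05 to PRC1 at 2.52, and the median was -0.23 without Ribo replicate 2. Glycolysis had 5 of 21 higher and 9 lower, median -0.34, from PGAM1 at -3.44 to ENO2 at 2.37, and its median was 0.44 over the 9 members with no named pseudogene. The TCA cycle (3 of 19 higher, 7 lower, median -0.14, from CS at -2.20 to IDH3B at 1.17) and cholesterol synthesis (4 of 25 higher, 8 lower, median -0.24, from INSIG1 at -1.96 to MVD at 1.63) lay near the middle.

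Long noncoding RNAs were fitted together with all genes. Of 287 that passed the filter in both assays, 180 passed the test, 62.7%, with 147 higher in Ribo and 33 lower, median 0.92. Of the tested coding genes 55.4% passed, with 27.9% higher and 27.5% lower. In the lowest of 5 RNA level bins, 51.9% of coding genes were higher, median 1.09. Noncoding RNAs were not set against genes of the same RNA level. Host transcripts of small nucleolar RNAs, among them the coding genes NOP56 and TAF1D, had 15 of 19 higher and 4 lower, median 1.65. GAS5 had 813 and 717 CPM in Ribo against 77.4 and 70.1 CPM in RNA, and SNHG1 had 761 and 659 CPM against 81.4 and 75.6 CPM. These hosts carry the small RNAs in their introns, and those counted in exons cannot be told from host reads. A list of nuclear and other noncoding RNAs, mostly long, had 4 of 14 higher and 7 lower, median -1.20, from RN7SL1 at -5.10 to MIR302CHG at 9.58. RN7SL1 and RMRP in it are short RNAs, and TUG1 is annotated as protein-coding. The higher members were MALAT1 (log2 2.43), MEG3, RMRP and MIR302CHG. NORAD, a cytoplasmic RNA that binds Pumilio, had 47.1 and 34.7 CPM in Ribo against 511 and 474 CPM in RNA, and NEAT1, the scaffold of paraspeckles, had 75.5 and 82.4 CPM against 605 and 611 CPM.

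Other noncoding rows showed what else the Ribo libraries held. RMRP, the RNA of the mitochondrial RNA processing enzyme, took 5.35% and 5.20% of Ribo counts against 0.118% and 0.135% of RNA counts. MALAT1, a nuclear RNA, took 2.56% and 2.05% against 1.05% and 1.02%. MIR302A, a microRNA gene of pluripotent cells, took 48223 and 41981 counts in Ribo against 387 and 323 in RNA, and its host transcript MIR302CHG had 1270 and 1047 CPM against 1.183 and 1.84 CPM. The product of its 3′ arm is shown because mature microRNAs are close in length to ribosome footprints, with its seed, bases 2 to 8, in capitals.
hsa-miR-302a-3p: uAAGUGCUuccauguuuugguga
It is 23 bases long and lies at chr4:112648186-112648208 on the minus strand (RefSeq, GRCh38.p14). MIR1246 took 10440 and 10704 Ribo counts and no RNA count.

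Whether the DE ratio differed from that of later stages was tested as an interaction over all 14 libraries, setting the DE ratio against the mean of the PP1 and PP2 ratios. By edgeR's quasi-likelihood test, 181 of 12583 genes passed, 1.44%, with 134 higher at DE and 47 lower. The count ranged from 20 to 1429 when 1 library was left out, the lowest without RNA DE replicate 1 and the highest without Ribo PP2 replicate 2, and was 80 with a replicate block. Levels below are group means scaled over the 14 libraries, so they differ slightly from those above. Ribo PP2 replicates 1 and 3 were known from earlier results of these data to differ in composition. They were kept in this fit, so PP2 levels and ratios are uncertain. Of the 181 genes, 19 had a group with no count and 52 had more than 5 CPM in every group.

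Few members of the lists passed. ID2 was higher at DE, with 88.9 CPM in Ribo and 13.1 in RNA at DE, 387 and 188 at PP1, and 249 and 150 at PP2 (adjusted p = 0.0322). KLF4 was also higher at DE, with 24.3 and 1.82 CPM at DE, 4.72 and 5.28 at PP1, and 5.08 and 2.39 at PP2. TET1 was lower at DE, with 48.1 CPM in Ribo and 338 in RNA at DE, 89.3 and 184 at PP1, and 72.4 and 187 at PP2 (adjusted p = 0.0402). The mitochondrial ribosomal protein MRPL19 was lower at DE, with 20.9 and 77.0 CPM at DE, 47.3 and 51.4 at PP1, and 66.3 and 90.6 at PP2, and the VEGF receptor KDR, a mesoderm marker, was lower with 15.6 and 35.0 CPM at DE, 22.1 and 6.16 at PP1, and 59.3 and 28.5 at PP2. Of the other list members that passed, ZNF12, ZNF169, ZNF391, ZNF385B, COL12A1, NKX6-1 and CDX2 were higher at DE, and ZNF595, ZNF17, ZNF506, APOM and GPX2 were lower. Many of these had an assay near 0 at DE. NKX6-1 had no RNA count there and COL12A1 0.30 CPM in RNA, each with 6.96 CPM in Ribo. ZNF595 had no Ribo count at DE, ZNF17, APOM and GPX2 each had 0.20 CPM in Ribo and ZNF506 had 0.82. CDX2, a marker of extraembryonic and hindgut cells, had 62 and 3 Ribo counts at DE against 1 and 3 RNA counts. None of NKX6-1, COL12A1, ZNF595, ZNF17, APOM, GPX2, ZNF506 and CDX2 was tested at DE alone, and their fitted differences are uncertain. These calls turned on single libraries. With each of the 14 libraries left out in turn, ID2 passed in 6 of the fits, TET1 in 3, MRPL19 and KDR in 4, KLF4 and CDX2 in 12 and NKX6-1 in 13. With a replicate block ID2, TET1, MRPL19 and KDR did not pass (adjusted p = 0.0559, 0.0695, 0.0684 and 0.0868). Nor did ZNF12, ZNF169, ZNF391, ZNF385B, ZNF17 and GPX2 pass with the block. None of 73 ribosomal protein, 34 complex I or 13 mitochondrially encoded genes passed. Their medians at DE, PP1 and PP2 were -0.92, -1.63 and -1.69 for ribosomal proteins, 1.45, 1.602 and 1.96 for complex I, and -2.28, -1.80 and -1.16 for mitochondrially encoded genes.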

How the data were processed

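The authors deposited a table of raw read counts per gene symbol for the 14 libraries, with a gene length column. The submitters' processing notes name cutadapt 1.18, Bowtie 1.2, STAR 2.7.1a, featureCounts 1.6.4 and the hg38 build. The strand setting, the annotation release and the treatment of multi-mapping reads are not given in the sources used here. Ribo and RNA of DE (4 libraries) were compared with edgeR 4.0.16 (R 4.3.3) by the quasi-likelihood F test on the deposited counts, with filterByExpr (minimum count 10) in each assay, TMM over protein-coding genes and Benjamini-Hochberg adjustment over all tested genes at a threshold of 0.05. The test was run on simulated data with known changes first. Stages were compared by an interaction over all 14 libraries. limma 3.58.1 and DESeq2 1.42.0 served alternatives.

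Genes, classes and lists were chosen with earlier results of these data known. Named genes are the 10 highest and 10 lowest ratios, the 6 tested genes with most Ribo reads, the ends of each list, the top of the genes seen in 1 assay and further list members. The highest ratios above 20 CPM in RNA and the choice among list members came after values were seen. Gene length stood in for the planned RefSeq coding length, which was not used here. Samples with the same replicate number did not deviate together (correlation -0.03), so the numbers were not taken as pairs. Alternatives were other normalizations, filters, tests and depths, leaving out each library, and, chosen after seeing the data, centring by length or RNA level and the handling of named pseudogenes. List members whose symbols were not in the table are not analysed here, and a few genes that the rule names are not reported here.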

Additional observations from a re-analysis of the deposited data

Results flagged for a closer look

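The difference between the DE ratio and the mean ratio of PP1 and PP2 was itself tested, by an interaction in edgeR's quasi-likelihood fit, and the 5 largest differences in each direction were looked at. All 10 have a group with no count, where the fitted difference depends on the prior count and is no bound, so the group mean CPM carries the result. Levels are given as Ribo and then RNA.

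FABP1, the liver and intestinal fatty acid-binding protein, had a fitted log2 difference of 9.42, with 36.7 and 0 CPM at DE, 57.8 and 10.4 CPM at PP1, and 9.93 and 2.44 CPM at PP2. SLC6A19, an amino acid transporter, followed at 8.45 and TMPRSS4, a membrane protease, at 8.33, both with no RNA count at DE. ARID3C, at 7.74, also had no RNA count at DE. ACTL10, at 7.82, had no Ribo count at PP1, with 8.98 and 3.35 CPM at DE.

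Lower at DE were HARBI1 at -9.83, SPR, sepiapterin reductase, at -9.27, ZNF595 at -9.12, AK7 at -8.21 and MACC1 at -8.16, and all 5 had no Ribo count at DE. ZNF595 had 0 and 21.2 CPM at DE, 4.78 and 13.6 CPM at PP1, and 4.96 and 20.8 CPM at PP2.

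Not every call held. With each of the 14 libraries left out in turn, FABP1 and SPR passed in all 14 fits, SLC6A19, TMPRSS4 and HARBI1 in 13, ZNF595 and MACC1 in 12 and ACTL10 in 10. AK7 passed in 4 of them and ARID3C in 3, and neither passed with a replicate block (adjusted p = 0.0800 for AK7 and 0.0569 for ARID3C).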

How the results depend on the processing

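The count of DE genes that passed, 6006, stayed within 1.5 times under the other settings, apart from the following. It was 2185 (1243 higher, 942 lower) when a change of over 2-fold had to be shown. It ranged from 3363 to 7567 when 1 library was left out (higher 1698 to 3675, lower 1665 to 3892), and was lowest without an RNA library. The replicate numbers did not pair the samples, and a replicate block gave 5556 genes. The 181 genes of the stage comparison became 315 without a low-count filter, 754 with DESeq2 and 80 with a replicate block, and ranged from 20 to 1429 when 1 of the 14 libraries was left out. The cause was not tested. The Ribo PP2 group held replicates 1 and 3, known from earlier results to differ in composition.

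Of 34 class medians 20 lay below 0, but 9 when centred within 10 bins of RNA level, and 20 to 21 when 1 library was left out. Centred on RNA level, the medians that crossed 0 were those of cytosolic aminoacyl-tRNA synthetases (0.19), replacement histones (0.23), endoderm transcription factors (0.32), signals (0.10), laminins (0.23), glycolysis (0.058), cholesterol synthesis (0.14), mitosis (0.22), cytoskeleton (0.23), collagen chains (0.37) and mRNAs with upstream open reading frames (0.44). Centred on length, they were initiation factors (-0.15), mitochondrial ribosomal proteins (-0.023), polyamine genes (-0.41), selenoproteins (-0.49), DNA replication (-0.16), collagen chains (0.21) and laminins (0.028), with 23 medians below 0. With a filter on RNA alone, they were cytosolic synthetases (0.060), replacement histones (0.048), signals (0.14), collagen chains (0.029) and the TCA cycle (0.11). With RNA thinned, they were the TCA cycle (0.045), collagen chains (0.031), polyamine genes (-0.010) and upstream open reading frames (0.068). Without members that have a pseudogene they were glycolysis (0.44), the TCA cycle (0.50) and upstream open reading frames (0.037). Without a filter they were initiation factors (-0.0094), upstream open reading frames (0.085), collagen chains (0.015), ER chaperones (-0.058) and DNA replication (-0.047), and with 14 libraries upstream open reading frames (0.013) and collagen chains (0.076). The initiation factor median was -0.044 to 0.080 when 1 library was left out, and without Ribo replicate 2 selenoproteins were -0.18 and upstream open reading frames 0.092.

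Among the genes named here the sign changed only for some that had not passed, with ratios from -0.27 for TFRC to 0.11 for CER1. With a filter on RNA alone, ACVR2A was 0.14, ATF4 0.23, H3F3B 0.14, MT-ND3 0.048, SOX17 0.028 and TFRC 0.025. With RNA thinned, ACVR2A was 0.013, ATF4 0.068 and H3F3B 0.0042. APLP2 was -0.033 with all genes in the fit, -0.063 without a filter, -0.016 at a mean of 50 counts and -0.0020 with 14 libraries, and OTX2 was -0.044, -0.074, -0.027 and -0.013. RACK1 was -0.014 with all genes in the fit and -0.044 without a filter. Leaving out 1 library gave -0.36 to 0.0023 for ACVR2A, -0.14 to 0.16 for APLP2, -0.23 to 0.050 for ATF4, -0.30 to 0.42 for CER1, -0.64 to 0.046 for MT-ND3, -0.15 to 0.14 for OTX2 and -0.70 to 0.047 for TFRC. In the fit of 14 libraries APOE, CKS1B, CXCR4, DPPA4, EEF2, EOMES, FN1, GATA4, HARS, HSPA5, MIXL1 and NDUFV2 lost their calls. NDUFV2 also lost its call without a filter, with a replicate block, with RNA thinned and with DESeq2, DPPA4 with all genes in the fit, without a filter and with a replicate block, and MIXL1 and SMAD3 with a filter on RNA alone. ACVR1B passed with all genes in the fit, without a filter, at a mean of 50 counts and with limma, FGF17 with a filter on RNA alone and with RNA thinned, and RACK1 with a filter on RNA alone. The median of all genes moved to between -0.07 and 0.03 under these settings.

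Genes under about 4.45 CPM in Ribo could not be compared, since the Ribo libraries held few coding counts. With 2 libraries per group, p-values cover only the spread between libraries. Counts per gene do not show where reads lay within a gene, and several copies of a gene make its counts uncertain.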
